A study of Homo sapiens with 9 samples.

Results

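A set of 10 genes that build the growth cone and the neuronal microtubule array was followed through the knockdown of MYCN and of HAND2 in LAN5 cells. They are GAP43, STMN2, STMN4, DCX, DPYSL3, CRMP1, MAP1B, MAP2, MAPT and TUBB3. They were chosen by name, with earlier results of these data known, and all 10 were found among the 25084 genes of the deposited table. LAN5 is an established human neuroblastoma line that carries extra copies of MYCN. An electric pulse (nucleofection) carried 1 of 3 siRNAs, short RNAs through which a chosen transcript is destroyed, into the cells, and RNA was taken 72 h later. The control siRNA group is named siCTR, the MYCN group siMYCN (labelled siMYCN_2) and the HAND2 group siHAND2 (labelled siHAND2_3), and each has 3 libraries. Each target was thus hit by a single siRNA in a single line, and all groups share the amplified MYCN background and the nucleofection. The labels do not say whether the 3 libraries of a group came from separate cultures, so the p-values measure the spread between these libraries, which may be technical.

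A growing neurite ends in a growth cone, whose membrane and actin edge explore while microtubules push in from the shaft. Tubulin subunits, proteins that bind along the microtubule wall, and stathmins that take up free tubulin together set how long and how stable those microtubules are. In sympathetic neuroblasts, the cells from which neuroblastoma arises, these genes are switched on as cells stop dividing and extend processes. MYCN and HAND2 belong to the basic helix-loop-helix transcription factors, whose dimers bind the E-box, a short DNA element written CANNTG.

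The promoter letters are shown for the members whose RefSeq start site coincides with the outermost start of the gene in the deposited table. The siRNAs target the transcripts of 2 E-box binding proteins, and no protein level is given here. Each line gives the 250 bases before the start, 5′ to 3′ on the strand of the gene (RefSeq, GRCh38.p14), with every CANNTG in capitals. GAP43 lies on the plus strand (chr3:115623260-115623509), and DPYSL3 (chr5:147510069-147510318) and CRMP1 (chr4:5893087-5893336) lie on the minus strand.
GAP43: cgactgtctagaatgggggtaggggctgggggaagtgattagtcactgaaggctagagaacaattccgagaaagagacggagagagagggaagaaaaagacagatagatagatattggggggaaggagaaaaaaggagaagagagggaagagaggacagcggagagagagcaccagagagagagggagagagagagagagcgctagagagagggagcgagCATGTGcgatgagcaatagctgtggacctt
DPYSL3: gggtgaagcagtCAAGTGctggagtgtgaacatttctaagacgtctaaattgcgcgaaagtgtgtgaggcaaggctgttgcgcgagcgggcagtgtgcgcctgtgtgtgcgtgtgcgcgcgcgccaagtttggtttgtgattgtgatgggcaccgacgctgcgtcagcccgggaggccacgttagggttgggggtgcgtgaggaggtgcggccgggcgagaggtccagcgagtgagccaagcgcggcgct
CRMP1: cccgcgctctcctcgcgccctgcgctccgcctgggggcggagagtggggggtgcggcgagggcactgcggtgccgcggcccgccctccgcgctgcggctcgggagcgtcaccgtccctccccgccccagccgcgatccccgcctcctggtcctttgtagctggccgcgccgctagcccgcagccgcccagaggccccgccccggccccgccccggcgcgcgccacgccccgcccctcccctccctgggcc
GAP43 had 1 match, CATGTG, 30 bases before its start. DPYSL3 had 1 match, CAAGTG, 238 bases before its start. The CRMP1 window, 82.8% G and C, held none. RefSeq windows were given for 7 of the 10 members, 17 windows in all, and 8 of them (47.1%) held CANNTG on either strand, against 61.8% of all 35116 windows of the same length. The palindrome CACGTG, which MYC proteins are known to bind, stood in 1 member window, 37 bases before a second start of CRMP1, and in 6.34% of all windows. CATCTG, a form known for HAND proteins, was searched on both strands (CAGATG on the other). It stood in 1 window of MAP2 and 1 of MAP1B, and in 12.2% of all windows. Both are also matches of CANNTG. Of the 3 DCX windows, 1 held 3 matches (177, 105 and 73 bases before its start), and the other two held none. A gene-level value does not show which start a cell used, so these letters describe the windows only.

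Values are CPM: the reads of a gene after each library is brought to one common total. From the smallest step between values, the libraries held 21.1 to 32.7 M gene reads. For the members this is 744 reads at the least (GAP43) and 42081 at the most (MAP1B), a counting error of 3.67% of the value for the first, which leaves out other sources of error. Tests used limma on log2(CPM + 1) over the 14495 genes that reached 1 CPM in 3 or more libraries, with Benjamini-Hochberg adjustment over all of them. All 10 members passed that filter in every group. In the order siCTR, siMYCN, siHAND2, MYCN measured 1842 ± 54.2, 1289 ± 47.0 and 914 ± 48.4 CPM, and HAND2 501 ± 13.7, 571 ± 15.9 and 272 ± 7.65 CPM (SD, n = 3 libraries each). Both siRNAs thus lowered their own target, and the siHAND2 libraries also held less MYCN transcript than the siMYCN libraries. Replicate 3 of siHAND2 stood somewhat apart, with a chi-square per degree of freedom of 8.88 and 8.13 against its replicates and 2.90 to 5.76 for every other pair of replicates. Of 7 sympathoadrenal markers, 6 were at 1 CPM or more in siCTR, among them DBH, the last enzyme of noradrenaline synthesis. Their levels were uneven, with DBH at 263 CPM but TH at 2.95 and SLC18A1 at 1.36 CPM, and SLC18A2 was under 1 CPM. The Schwann cell, endothelial and immune lists had no marker at 1 CPM or more in any group. CDH19 and FABP7 of the Schwann cell list and CD3E of the immune list were not found by name. This left 5 Schwann cell and 3 immune markers.

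In siMYCN all 10 members rose, and in all 10 the 3 siMYCN libraries lay above the 3 siCTR libraries. The rises ran from 0.19 (CRMP1) to 0.94 (DCX) on the log2 scale, with a median of 0.61, beside a median of 0.06 over all 14495 genes. In the table as a whole 35.9% of the genes were called in this comparison (24.5% higher), and 33.4% had their 3 siMYCN libraries above the 3 siCTR libraries. Of all calls, 68.3% were higher with CPM as deposited and 49.7% after median-ratio rescaling, which set the median of all genes to 0.01. The median of the members was then 0.55, and 9 of the 10 kept their call (CRMP1, 0.13, adjusted p = 0.0943, did not). Of 14507 genes tested after that rescaling, 2329 were higher and 2360 lower. In RNA from whole cultures, a change in the share of cells of a type and a change in transcript per cell cannot be told apart.

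The siHAND2 response was split. Of the members 6 rose (GAP43, STMN2, STMN4, DPYSL3, MAP1B and TUBB3), DCX and MAP2 fell, and MAPT and CRMP1 did not pass the test. Over all genes 29.9% were called, 18.1% higher and 11.8% lower, and the median change was 0.04. The 3 siHAND2 libraries lay above the siCTR libraries in 6 members (25.8% of all genes) and below them in 2 (16.6%). Of all calls, 60.6% were higher with CPM as deposited and 42.0% after median-ratio rescaling, while the members gave 6 higher and 2 lower under both. Of 14507 genes tested after that rescaling, 1804 were higher and 2487 lower. Without siHAND2 replicate 3 there were 7 higher, since CRMP1 then passed (0.15, adjusted p = 0.0259), and 2 lower. In the direct comparison of siHAND2 with siMYCN, 7 members were lower (15.5% of all genes were), STMN2 was higher (11.4% of all genes were), and GAP43 and CRMP1 did not pass. The siHAND2 libraries lay below the siMYCN libraries in 7 members (21.6% of all genes) and above them in 2 (17.1%). Both comparisons with siCTR use the same 3 control libraries.

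Markers of cell identity moved with the groups as well. The summed CPM of the 7 sympathoadrenal markers ran from 940.1 to 1035 in the siCTR libraries, from 1240.1 to 1326 in siMYCN and from 793 to 879 in siHAND2. DBH had means of 263, 344 and 130.1 CPM in that order. It rose by 0.38 in siMYCN and changed by -1.01 after HAND2 knockdown (limma adjusted p = 4.46e-05 and 6.84e-10). Of the 6 markers tested, 5 rose in siMYCN (24.5% of all genes did) and 4 fell in siHAND2 (11.8% of all genes did). CHGA passed in neither comparison (0.03 and -0.08, limma adjusted p = 0.707 and 0.369). CHGB did not pass in siHAND2 (-0.03, adjusted p = 0.738). The 8 fibroblast and mesenchymal markers had sums of 288 to 292 CPM in siCTR. Their sums were 347 to 349.5 CPM after MYCN knockdown and 621 to 703 CPM after HAND2 knockdown. In siMYCN 6 of the 7 tested rose (24.5% of all genes did) and none fell, with a median of 0.68. LUM went from 9.15 to 17.2 CPM there and COL3A1 from 1.42 to 4.19 CPM, while PDGFRB did not pass (0.14, limma adjusted p = 0.0913). In siHAND2 6 of the 7 also rose (18.1% of all genes did), with a median of 1.48. Among them were PDGFRA (121 to 341 CPM), PDGFRB (89.8 to 179 CPM) and LUM (9.15 to 54.7 CPM). THY1 fell in siHAND2 (65.4 to 56.8 CPM), and COL1A1 was under 1 CPM in every group. Their part in the members' changes was not tested.

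**Figure D1:**
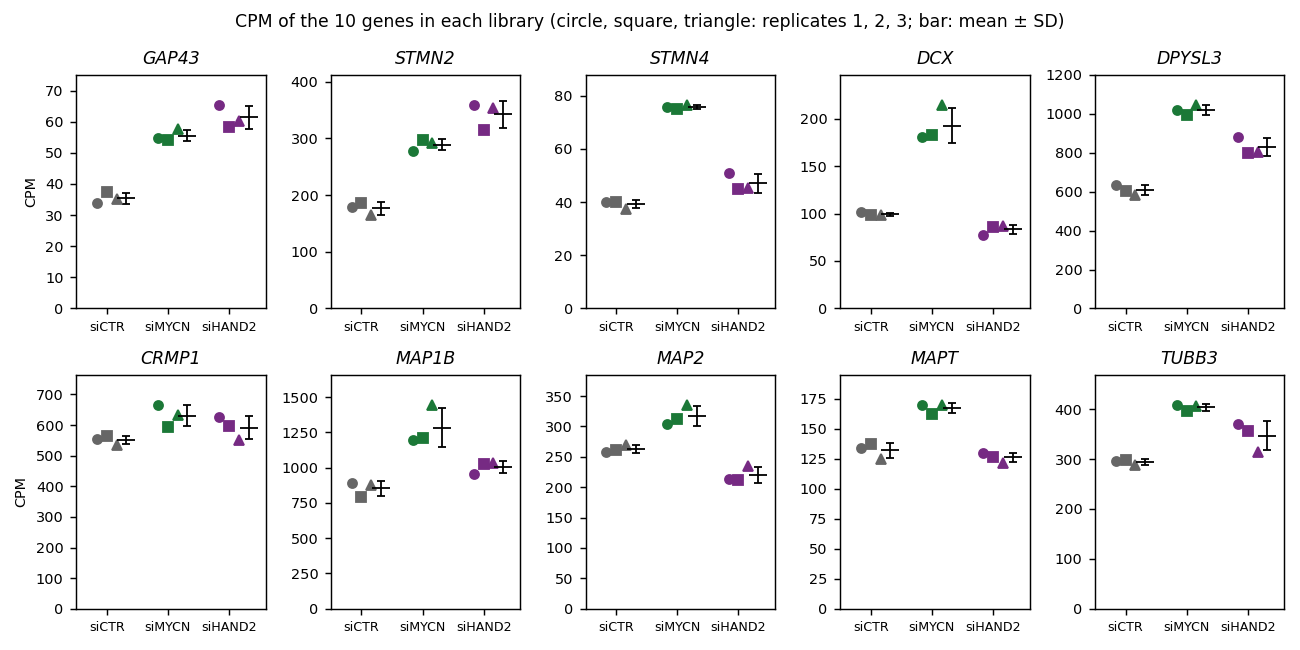
CPM of each of the 10 genes (vertical axes, from 0, with a scale per gene) in the 3 libraries of siCTR, siMYCN and siHAND2; the bars give mean ± SD. The 3 siMYCN points lie above the 3 siCTR points in every panel, while the siHAND2 points of DCX and MAP2 lie below siCTR.

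GAP43 encodes a membrane protein of the growth cone that binds calmodulin and is phosphorylated by protein kinase C. Its gene spans chromosome 3, 115623510 to 115721490 (GRCh38, plus strand). The siCTR libraries held 33.7, 37.3 and 35.3 CPM, the siMYCN libraries 54.6, 54.2 and 57.5 CPM and the siHAND2 libraries 65.3, 58.3 and 60.4 CPM. No library of either knockdown overlapped the controls, and all 3 siHAND2 libraries were above all 3 siMYCN libraries. The log2 fold change was 0.63 (standard error 0.05, limma adjusted p = 3.99e-07) after MYCN knockdown and 0.77 (standard error 0.05, adjusted p = 2.36e-08) after HAND2 knockdown. The difference between the knockdowns, 0.14 (95% interval 0.03 to 0.26), had an adjusted p of 0.0668.

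STMN2 and STMN4 encode stathmins of neurons, proteins anchored to membranes that bind tubulin dimers and favour microtubule disassembly. STMN2 (chromosome 8, 79611117 to 79666158, plus strand) stood at 179, 186 and 164 CPM in the controls. The siMYCN libraries held 278, 297 and 292 CPM and the siHAND2 libraries 359, 315 and 354 CPM. The siHAND2 mean was 194% and the siMYCN mean 164% of the siCTR mean, and the 3 groups did not overlap. The rise was 0.71 (limma adjusted p = 1.24e-07) after MYCN knockdown and 0.95 (adjusted p = 1.81e-09) after HAND2 knockdown, with a difference of 0.24 (adjusted p = 0.0033). Of all tested genes 0.807% rose more than STMN2 in siHAND2.

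STMN4 (chromosome 8, 27235323 to 27258420, minus strand) moved most in the other knockdown. Levels were 40.2, 40.2 and 37.6 CPM with the control siRNA, 75.7, 74.9 and 76.5 CPM after MYCN knockdown and 51.1, 44.8 and 45.1 CPM after HAND2 knockdown. The siMYCN libraries were close together and far above the rest, and the siHAND2 libraries lay just above siCTR. The changes were 0.93 (standard error 0.05, limma adjusted p = 1.39e-08) after MYCN knockdown and 0.25 (adjusted p = 0.00263) after HAND2 knockdown. The 2 stathmin genes thus differed between the knockdowns with opposite sign, STMN2 by 0.24 and STMN4 by -0.68 (adjusted p = 7.89e-08).

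DCX encodes doublecortin, which stabilises microtubules in migrating and newborn neurons (chromosome X, 111293779 to 111412429, minus strand). The controls held 101, 98.6 and 98.5 CPM. The siMYCN libraries held 181, 183 and 214 CPM and the siHAND2 libraries 77.9, 85.5 and 87.0 CPM. The 3 groups did not overlap, with siMYCN at 194% and siHAND2 at 83.9% of the siCTR mean. DCX rose by 0.94 in siMYCN (standard error 0.06, limma adjusted p = 2.16e-08), and 0.29% of all tested genes rose more. It changed by -0.25 in siHAND2 (adjusted p = 0.0046), so that the difference between the knockdowns was -1.19 (adjusted p = 1.92e-10), the widest among the members.

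DPYSL3 and CRMP1 encode collapsin response mediator proteins, cytosolic phosphoproteins that carry semaphorin signals to the growth cone's cytoskeleton. DPYSL3 (chromosome 5, 147390808 to 147510068, minus strand) stood at 635, 606 and 584 CPM in the controls. The siMYCN libraries held 1021, 993 and 1046 CPM and the siHAND2 libraries 883, 799.7 and 805 CPM. The 3 groups were again fully apart, in the order siCTR, siHAND2, siMYCN. The rise was 0.74 (limma adjusted p = 2.16e-08) after MYCN knockdown and 0.45 (adjusted p = 2.21e-06) after HAND2 knockdown, with a difference of -0.30 (adjusted p = 0.000154).

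CRMP1 (chromosome 4, 5748084 to 5893086, minus strand) had the smallest change of the 10 in siMYCN and between the knockdowns, while MAPT had the smallest in siHAND2. The 3 control libraries gave 554, 564 and 536 CPM, siMYCN gave 664, 595 and 631 CPM and siHAND2 gave 625, 598 and 551 CPM. The siMYCN libraries lay above siCTR, and the siHAND2 libraries overlapped both other groups. The change of 0.19 in siMYCN passed (limma adjusted p = 0.00794). In siHAND2 it was 0.10 (95% interval -0.01 to 0.21, adjusted p = 0.156), and the difference between the knockdowns was -0.09 (95% interval -0.20 to 0.02, adjusted p = 0.201). CRMP1 overlaps EVC, which lies on the opposite strand and measured 20.2 ± 0.966, 23.8 ± 0.869 and 23.4 ± 2.03 CPM in siCTR, siMYCN and siHAND2 (SD, n = 3 libraries). Use of strand in counting is not stated, so reads of the shared stretch are uncertain.

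**Figure D2:**
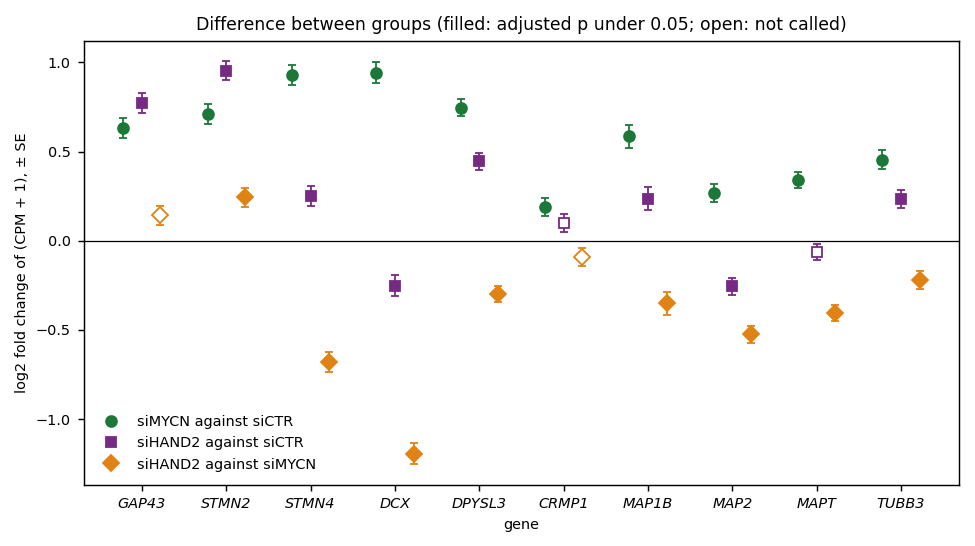
Log2 fold change of CPM + 1 for each gene (vertical axis, error bars are limma standard errors) in the 3 comparisons; filled points passed an adjusted p of 0.05. All siMYCN points are above 0, from 0.19 to 0.94, and the siHAND2 points run from -0.26 (MAP2) to 0.95 (STMN2).

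MAP1B, MAP2 and MAPT encode proteins that bind along the microtubule wall. MAP1B is the early one, found in growing axons (chromosome 5, 72107234 to 72209565, plus strand). The siCTR libraries held 890.4, 791 and 879 CPM, the siMYCN libraries 1197, 1213 and 1442 CPM and the siHAND2 libraries 957, 1024 and 1030.2 CPM. The groups did not overlap, and siMYCN replicate 3 was well above its replicates. The rise was 0.59 (standard error 0.06, limma adjusted p = 4.28e-06) after MYCN knockdown and 0.23 (adjusted p = 0.0119) after HAND2 knockdown. The siHAND2 call was lost without siCTR replicate 2 (0.18, adjusted p = 0.077) and with no intensity trend (adjusted p = 0.0569).

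MAP2 marks dendrites and cell bodies (chromosome 2, 209424058 to 209734118, plus strand). Levels were 258, 261 and 270.0 CPM with the control siRNA, 304, 313 and 335 CPM after MYCN knockdown and 213, 212 and 235 CPM after HAND2 knockdown. The siMYCN libraries were all above and the siHAND2 libraries all below the controls. It rose by 0.27 in siMYCN (limma adjusted p = 0.000437) and changed by -0.26 in siHAND2 (adjusted p = 0.000797), and the knockdowns differed by -0.52 (adjusted p = 3.97e-07).

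MAPT encodes tau, which lies mainly along axons (chromosome 17, 45894382 to 46028334, plus strand). The 3 control libraries gave 134, 137 and 125 CPM, siMYCN gave 169.5, 163 and 169.6 CPM and siHAND2 gave 129.9, 127 and 122 CPM. The siMYCN libraries were above all others, and siHAND2 overlapped siCTR. The change was 0.34 (limma adjusted p = 2.53e-05) after MYCN knockdown and -0.06 (95% interval -0.16 to 0.03, adjusted p = 0.304) after HAND2 knockdown. The difference between the knockdowns, -0.40, passed (adjusted p = 3.62e-06). Overlapping MAPT-IT1, on the same strand, measured 2.34 ± 0.117 CPM in siCTR, and antisense MAPT-AS1 0.636 ± 0.166 CPM, both small beside MAPT.

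TUBB3 encodes the beta-tubulin typical of neurons (chromosome 16, 89921392 to 89938761, plus strand). The siCTR libraries held 296, 299 and 288 CPM, the siMYCN libraries 408, 396 and 407 CPM and the siHAND2 libraries 370.2, 356 and 314 CPM. The groups did not overlap, and siHAND2 replicate 3 was the lowest of its group. The rise was 0.46 (limma adjusted p = 4.64e-06) after MYCN knockdown and 0.23 (adjusted p = 0.00246) after HAND2 knockdown, with a difference of -0.22 (adjusted p = 0.00363).

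The place of TUBB3 among the beta-tubulins was examined as its share of the summed CPM of 9 beta-tubulin genes. The siCTR libraries had shares of 9.81%, 9.84% and 9.57%, the siMYCN libraries 11.3%, 11.8% and 11.6%, and the siHAND2 libraries 10.4%, 10.5% and 9.80%. The siMYCN libraries all held a larger share than any other library, and siHAND2 overlapped siCTR. The difference was 1.81 percentage points for siMYCN and 0.468 for siHAND2 (exact permutation tests, two-sided, p = 0.10 and p = 0.30; with 3 against 3 libraries the smallest possible p is 0.10). TUBB, the main form, held 57.2% to 57.4% of the sum in siCTR and 53.2% to 53.8% in siMYCN. The sum itself was 3020.0 ± 13.1, 3497 ± 119 and 3393 ± 184 CPM in siCTR, siMYCN and siHAND2 (SD, n = 3 libraries). Reads of near-identical copies such as TUBB2A and TUBB2B may be split uncertainly, and without TUBB2A, TUBB2B and TUBB8 the siMYCN difference was 2.81 points. With CPM per kilobase the differences were 2.06 and 0.606 points, and siHAND2 then no longer overlapped siCTR (exact p = 0.10 for both).

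**Figure D3:**
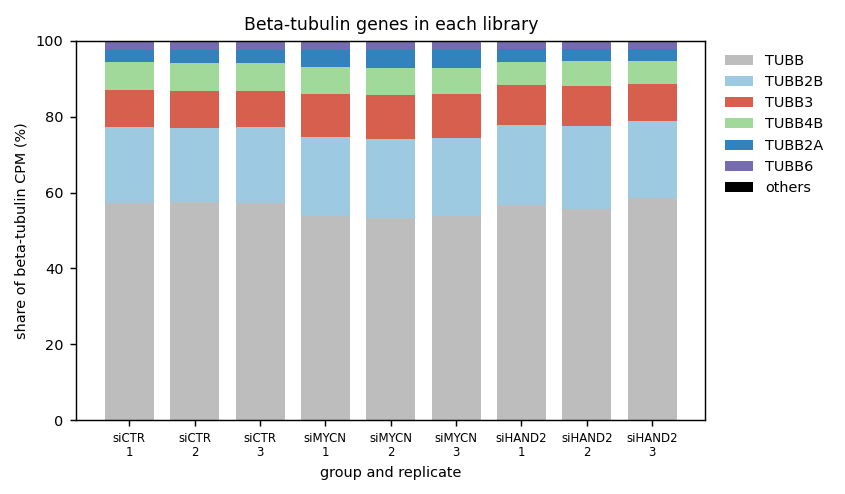
Share of the summed beta-tubulin CPM (vertical axis, percent) held by each gene in each of the 9 libraries. The TUBB3 band is 9.57% to 9.84% in siCTR and 11.3% to 11.8% in siMYCN, where the TUBB band is narrower.

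Levels of different genes were compared per length, as CPM per kilobase of the canonical GENCODE transcript. In siCTR, CRMP1 (174 ± 4.46 CPM per kilobase) and TUBB3 (172 ± 3.10) led and overlapped each other. They were followed by DPYSL3 (111 ± 4.59), STMN2 (92.7 ± 5.87) and MAP1B (72.4 ± 4.62). Lower still were MAP2 (27.2 ± 0.648), GAP43 (23.7 ± 1.20), MAPT (19.4 ± 0.915), STMN4 (16.9 ± 0.651) and DCX (10.9 ± 0.167; all SD, n = 3 libraries). Except for CRMP1 and TUBB3, the 3 libraries of neighbouring genes did not overlap. In siMYCN GAP43 was above MAP2, at 36.2 to 38.4 against 31.5 to 34.7 CPM per kilobase over the libraries, an order that turned with the longest transcript (means of 29.2 and 31.7). In siHAND2 STMN2 reached 180.2 ± 12.5 CPM per kilobase, above DPYSL3 at 151 ± 8.49, while GAP43 (41.0 ± 2.40 CPM per kilobase) was again above MAP2 (22.8 ± 1.34). DCX was last of the 10 in every group. The order rests on the transcript taken: with the longest annotated transcript TUBB3, at 58.1 CPM per kilobase in siCTR, fell below STMN2 and MAP1B.

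Patterns over the 9 libraries were compared by Pearson correlation of log2(CPM + 1) with 11191 other genes of at least 5 CPM. The points are 9 libraries in 3 groups, so these values mostly describe the group means. The gene most like STMN4 was L1CAM (r = 0.998), a neural adhesion molecule, at 84.8, 164 and 99.2 CPM in siCTR, siMYCN and siHAND2. Most like DCX was JAK1 (0.994), at 139.8, 209 and 119.6 CPM. DPYSL3 was matched most closely by CADM3 (0.994), CRMP1 by ARF3 (0.996) and TUBB3 by DBNL (0.993). The others were P2RX3 for GAP43 (0.992), ITGA6 for STMN2 (0.991), PLCB4 for MAP2 (0.991), ASTN1 for MAPT (0.990) and GATA2-AS1 for MAP1B (0.989).

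Related genes were counted in 8 lists chosen by function. The shares over all tested genes, to be set beside each count with CPM as deposited, were 24.5% higher and 11.4% lower in siMYCN. In siHAND2 they were 18.1% higher and 11.8% lower. Counts after median-ratio rescaling are to be set beside other numbers, out of 14507 genes. These were 2329 higher and 2360 lower in siMYCN, and 1804 higher and 2487 lower in siHAND2. With quantile normalization 2333 of 14495 genes were higher and 2395 lower in siMYCN. Among the relatives of the stathmin, CRMP and doublecortin members, 6 of 7 tested genes rose in siMYCN and none fell (median 0.25), and 2 rose in siHAND2 (median 0.10), where median-ratio rescaling gave 1 higher, 1 lower and a median of 0.048. STMN3, another stathmin of neurons, rose by 0.55 in siMYCN (140 ± 3.30 to 205 ± 7.41 CPM, limma adjusted p = 3.33e-06), and DCLK2, a doublecortin-like kinase, by 0.38 (adjusted p = 2.8e-05). STMN1, the widely expressed stathmin, rose by 0.19 in siMYCN and 0.24 in siHAND2 (adjusted p = 0.000792). The siHAND2 call of DPYSL4 (0.15, adjusted p = 0.0483) was lost in 13 of 19 alternatives, among them both other scalings. Over all 19 the adjusted p ran from 0.00109 to 0.258.

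The other alpha- and beta-tubulins moved less evenly. Of 12 tested, 5 rose and 1 fell (TUBA3C) in siMYCN, and 3 rose and 2 fell (TUBA3C and TUBA4A) in siHAND2. These names were chosen after their values were seen. Over the 9 libraries TUBA3C averaged 4.95 CPM and TUBA4A 0.782 CPM, both low levels. The 1 lower call in siMYCN went to 0 when siCTR replicate 1 or 3, or any 1 siMYCN library, was left out. With CPM as deposited, 24.5% of all tested genes rose and 11.4% fell in siMYCN, and 18.1% rose and 11.8% fell in siHAND2. The list median was 0.17 in siMYCN and 0.04 in siHAND2. After median-ratio rescaling the siHAND2 median was -0.01 and the counts were 3 and 2 in siMYCN and 1 and 2 in siHAND2. TUBB2A rose by 0.65 in siMYCN (104 ± 3.02 to 165 ± 3.33 CPM, limma adjusted p = 1.56e-07) and measured 107 ± 8.57 CPM in siHAND2, a difference of 0.04 that was -0.02 after median-ratio rescaling. TUBA1A, the main alpha-tubulin of developing neurons, rose by 0.40 in siMYCN (adjusted p = 6.97e-06). In siHAND2 it rose by 0.19 (adjusted p = 0.00481), a call lost after median-ratio rescaling (0.14, adjusted p = 0.0543). TUBB2B rose by 0.28 and 0.25 in the 2 knockdowns.

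Other proteins of the microtubule wall gave 6 higher and 2 lower of 11 tested in siMYCN (median 0.14), where median-ratio rescaling gave 4 higher and a median of 0.083, and 2 higher and 2 lower in siHAND2 (median 0.01, and -0.05 after median-ratio rescaling). MAP1A, the adult relative of MAP1B, rose by 0.71 in siMYCN (14.0 ± 1.28 to 23.5 ± 2.32 CPM, limma adjusted p = 2.87e-05). TPPP rose by 0.47 in siMYCN, and MAP6, which protects microtubules from cold, by 0.45 in siMYCN and 0.25 in siHAND2. MAP7D3 fell by 0.38 in siHAND2 (adjusted p = 0.000279). In siMYCN it changed by -0.21 (adjusted p = 0.0183). That call did not hold when control library 1, control library 3 or siMYCN library 2 was left out (-0.19, -0.20 and -0.19). In each of those fits the list had 0 lower genes, so the call of MAP7D2, named after its values were seen, was lost as well.

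Proteins that bind microtubule ends rose in 16 of 21 tested genes in siMYCN and in 10 in siHAND2, and none fell (medians 0.26 and 0.15). After median-ratio rescaling 12 rose and 1 fell in siMYCN, and 10 rose and 1 fell in siHAND2. APC2, the neural relative of APC, rose by 0.61 in siMYCN and 0.48 in siHAND2 (71.2 ± 4.25 CPM in siCTR, 109 ± 5.75 and 100.6 ± 14.8). CLIP3 rose by 0.46 and 0.41. The difference between the knockdowns did not pass for either (limma adjusted p = 0.286 for APC2 and 0.673 for CLIP3).

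Growth cone membrane and actin proteins gave 12 higher and 1 lower of 20 tested in siMYCN (8 and 1 after median-ratio rescaling), and 9 higher and 3 lower in siHAND2 (7 and 4), with medians of 0.19 and 0.12 (0.13 and 0.067). BASP1, a membrane protein with the same kind of role as GAP43, rose by 0.44 in siMYCN and 0.30 in siHAND2 (103 ± 3.40, 140 ± 6.98 and 128 ± 6.78 CPM). PLPPR4 and PLPPR5, membrane proteins of the lipid phosphatase-related family, split as DCX did. PLPPR4 went from 68.4 ± 1.12 CPM in siCTR to 95.5 ± 3.99 in siMYCN and 38.1 ± 2.04 in siHAND2, changes of 0.47 and -0.83 (limma adjusted p = 2.59e-06 and 3.13e-09). PLPPR5 changed by 0.38 and -0.70, and each differed between the knockdowns, by -1.30 and -1.08 (adjusted p = 1.11e-11 and 7.12e-10).

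Enzymes that modify, sever or fold tubulin gave 10 higher and 3 lower of 27 tested in siMYCN, and 8 higher and 4 lower in siHAND2, where median-ratio rescaling gave 4 and 5. The medians were 0.09 in siMYCN and 0.04 in siHAND2, and 0.027 and -0.02 after that rescaling. With CPM as deposited, 24.5% of all tested genes were higher and 11.4% lower in siMYCN. The shares in siHAND2 were 18.1% and 11.8%. ATAT1, the alpha-tubulin acetyltransferase, rose by 0.46 in siMYCN and 0.36 in siHAND2 (limma adjusted p = 5.43e-05 and 0.000578). SVBP, the partner of the detyrosinating vasohibins, rose by 0.37 and 0.42. TTLL12 fell by 0.36 in siMYCN and by 0.40 in siHAND2.

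Kinases and phosphatase subunits that act on these proteins gave 11 higher and none lower of 17 tested in siMYCN, and 7 higher and none lower in siHAND2, with medians of 0.24 and 0.11. In siMYCN 8 were higher after median-ratio rescaling and 7 with quantile normalization. The siHAND2 median was 0.053 after median-ratio rescaling, with 6 higher. DYRK1A, a kinase of tau and MAP1B, rose by 0.36 and 0.25, MAPK9 by 0.37 in siMYCN, and GSK3B, another tau kinase, by 0.27 and 0.26. PPP2R2B, a brain subunit of protein phosphatase 2A, rose more in siHAND2, from 14.7 ± 0.266 CPM to 24.5 ± 0.380 (0.70, limma adjusted p = 1.99e-07), than in siMYCN (0.30), with a difference of 0.40 (adjusted p = 9.23e-05).

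The list of axonal motors and dynein holds kinesins and dynein subunits and also adaptors and regulators such as KIFAP3 and PAFAH1B1. It gave 20 higher and none lower of 25 tested in siMYCN, and 9 higher and 3 lower in siHAND2. In the direct comparison 18 of the 25 were lower in siHAND2 (15.5% of all genes were) and none was higher (11.4% of all genes were). KIF5A and KIF5C are neuronal kinesin heavy chains. KIF5A rose in both knockdowns, by 0.69 and 0.27 (52.5 ± 1.56, 85.4 ± 1.74 and 63.4 ± 0.992 CPM). KIF5C rose by 0.29 in siMYCN and fell by 0.33 in siHAND2 (604 ± 26.0, 741 ± 23.6 and 481 ± 2.41 CPM, limma adjusted p = 5.27e-05 and 1.82e-05). KIF26A rose by 0.60 and 0.33. The list medians were 0.28 in siMYCN and 0.11 in siHAND2, beside 0.06 and 0.04 over all genes, and after median-ratio rescaling 0.22 and 0.05 with 16 higher in siMYCN and 6 higher and 5 lower in siHAND2.

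**Figure D4:**
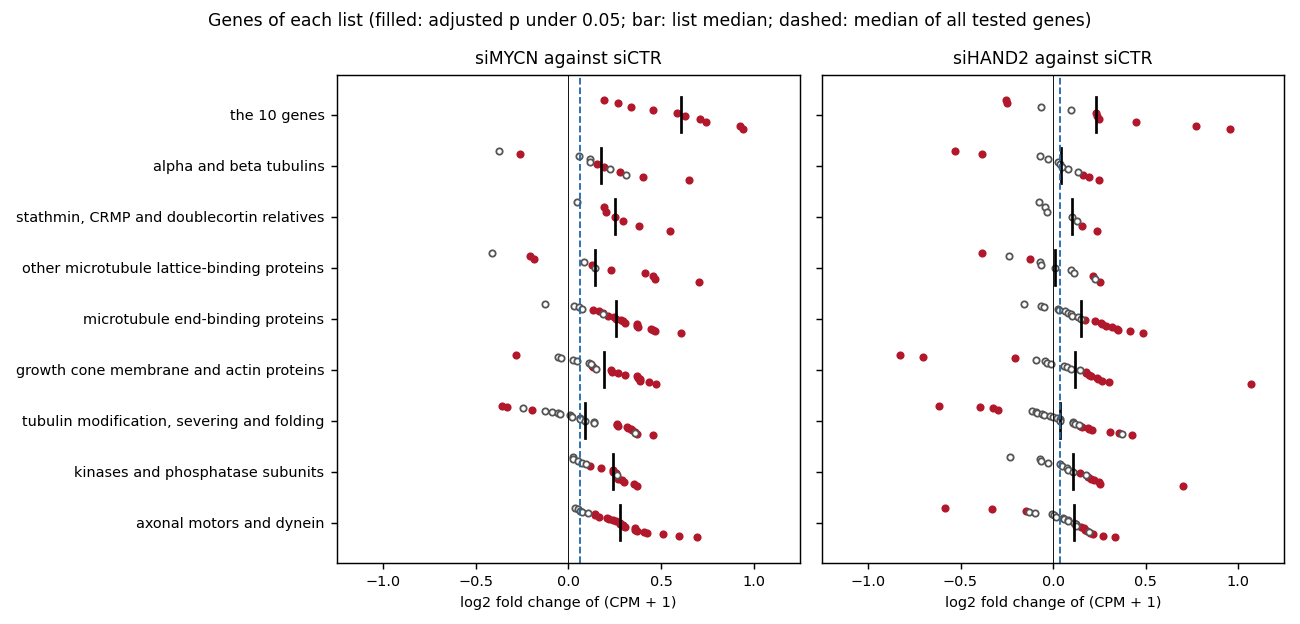
Log2 fold change of CPM + 1 (horizontal axes) of each tested gene of the members and the 8 lists in siMYCN and siHAND2 against siCTR. Filled points passed an adjusted p of 0.05, black bars are list medians, and the dashed line is the median of all tested genes (0.06 and 0.04). The members' median is 0.61 in siMYCN and 0.23 in siHAND2.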

How the data were processed

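Total RNA of 9 LAN5 libraries was sequenced. The authors deposited 1 table of CPM values for 25084 genes. Each value includes a constant of 0.0001. STAR 2.5.1 and Partek are named per the submitters' processing notes, with hg19 and GRCh37. The gene coordinates of the deposited file nonetheless follow GRCh38: 91.4% of 18215 symbols start within 5000 bases of the GRCh38 gene, against 5.62% of 18635 for GRCh37. Positions are therefore given as GRCh38, counted from 1. The counting rule, strand use, annotation and filters are not given in the sources used here. Of the low values, 79.9% to 81.2% were whole multiples (within 0.02) of the smallest step, too few for a count model.

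CPM was tested as log2(CPM + 1) with limma 3.58.1 in R 4.3.3 (1 mean per group, intensity trend, two-sided, threshold 0.05). Fold changes on this scale understate changes of low genes. The fit was checked on simulated data. The members and lists were chosen with earlier results of these data known. All members, and for each list the 2 called genes of at least 5 CPM with the largest change in each comparison with siCTR, are named. Of the list and marker symbols, MAP10, GPRIN2, NRN1, GPM6A, TTLL6, AGBL1, CDH19, FABP7 and CD3E were not analysed here. Alternatives were other pseudocounts (0.1 and 5), filters (none, 5 CPM), scalings, samples, a replicate block and, chosen after seeing the data, precision weights and per-length values.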

Additional observations from a re-analysis of the deposited data

How the results depend on the processing

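Among the log2 fold changes of the members recomputed under all alternatives, 564 kept their direction and side of the threshold, 3 lost a call, 3 gained one and none reversed. The lost calls were CRMP1 in siMYCN after median-ratio rescaling and MAP1B in siHAND2 in 2 fits. The count of members higher in siHAND2 than in siMYCN went from 1 to 2 with quantile normalization and with the replicate block, as GAP43 passed; the cause was not tested. The block changed no other call of a member. Whether replicate numbers pair the libraries was checked by correlating deviations from the group means. Same-numbered libraries of different groups correlated from 0.13 to 0.31 for replicate 1, -0.04 to 0.08 for replicate 2 and 0.17 to 0.18 for replicate 3. Differently numbered libraries correlated from -0.30 to 0.14. Replicates 1 and 3 thus shared some deviation by number, while replicate 2 did not stand out. Whether the numbers pair the libraries is not settled, and the main fit has no block. With the block the whole table gave 5895, 5089 and 4689 calls in place of 5209, 4339 and 3892. Leaving out 1 library at a time gave 10 members higher and 0 lower in siMYCN, 5 to 7 higher and 2 lower in siHAND2, and 1 higher and 7 lower in siHAND2 against siMYCN. The whole table then gave 4013 to 5854, 3075 to 4290 and 2909 to 3940 calls. The TUBB3 share differed by 1.71 to 1.94, 0.344 to 0.671 and -1.47 to -1.14 percentage points. Of the list counts, 822 stayed close to the main count and 90 moved away, which includes any step to or from 0. Among the other named genes, 1554 values kept their direction and side of the threshold. Another 22 lost a call, 10 gained one and 10 reversed. The reversed values were near 0. TUBB2A in siHAND2 was -0.021 after median-ratio rescaling and -0.021 to 0.094 with 1 library left out. In siHAND2 against siMYCN the values with 1 library left out ran from -0.068 to 0.040 for TUBB2B, -0.20 to 0.0031 for APC2, -0.089 to 0.00075 for CLIP3, -0.013 to 0.11 for SVBP, -0.11 to 0.038 for TTLL12 and -0.061 to 0.026 for GSK3B.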

Other observations

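Further genes of the lists, chosen after their values were seen, differed between the knockdowns. AGTPBP1, a carboxypeptidase that trims glutamate chains from tubulin, rose by 0.36 in siMYCN (limma adjusted p = 0.000158) and changed by -0.32 in siHAND2 (adjusted p = 0.000478). KIFAP3, the adaptor of the heterotrimeric kinesin motor, rose by 0.37 and changed by -0.15 (adjusted p = 9.08e-06 and 0.0209). GPRIN3, a growth cone protein, rose by 1.07 in siHAND2 (adjusted p = 1.14e-05), against 0.11 in siMYCN (adjusted p = 0.553). Its mean over the 9 libraries was only 1.06 CPM, near the filter of 1 CPM. PAFAH1B1 encodes the dynein regulator whose loss, like that of DCX, is known to cause lissencephaly. It rose in both knockdowns, by 0.36 and 0.17 (adjusted p = 4.05e-06 and 0.00382), while DCX fell in siHAND2.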
